A study of Drosophila melanogaster with 8 samples.

Results

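The eye pigment and tryptophan pathway genes described here are 9 genes taken by symbol from the count files: v, cn, cd, Pu, Hn, ry, w, st and bw. All 9 were among the 17411 genes of each file, and 8 of the 9 passed the low-count filter and were tested. RNA was sequenced from adult female Drosophila melanogaster, 1 week old, as cuticle with the fat body still attached. The 9G8 RNAi group, yolk-Gal4>9G8RNAi, had 4 libraries of 25396063 to 36181492 counts, and the control group, yolk-Gal4/w1118, had 4 libraries of 27946556 to 34750635 counts. Both groups carried yolk-Gal4, which is known to be active in the female fat body. With 9G8 RNAi it drove a hairpin against 9G8, an SR splicing protein encoded by x16, and the control group had no hairpin. Genotype therefore includes the hairpin insertion and its strain background. The target x16 had 198.6, 34.7, 103.1 and 49.5 CPM (counts scaled to library size) in 9G8 RNAi 1 to 4, and 60.4, 65.6, 325.5 and 145.1 CPM in controls 1 to 4. The groups overlapped, with 9G8 RNAi 1 above 3 of the 4 controls and 9G8 RNAi 3 above controls 1 and 2, so the level of x16 does not bear out the labels of single libraries (log2 fold change -0.63, SE 0.63, adjusted p = 0.862 by edgeR).

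These genes are named for the eye colour of their mutants, but their enzymes belong to general metabolism. Brown ommochrome pigments are made from tryptophan by way of kynurenine, and red drosopterins from GTP by way of pteridines. The pteridine branch also yields tetrahydrobiopterin, the cofactor of the enzyme that hydroxylates phenylalanine. Precursors enter pigment granules through ABCG transporters made of a pair of proteins: White pairs with Scarlet for the ommochrome branch and with Brown for the pteridine branch. In flies, parts of both branches also run in the fat body and the Malpighian tubules. The w gene is also the usual marker of fly transgenes, as mini-white, w1118 is a deletion allele of w, and some hairpin collections use v as a marker. The labels do not name the marker of the driver or of the hairpin. Counts at w, and at v where it served as a marker, add up chromosomal and marker copies, so marker copies and regulation of the gene cannot be told apart.

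In 9G8 RNAi, 1 of the 8 tested genes rose, cd, and 2 fell, bw and Pu. The filter admitted cd only through the 9G8 RNAi libraries, the group in which it was high. Over all 9846 tested genes, 0.995% rose and 2.21% fell, 3.21% in all, at an adjusted p under 0.05 by edgeR's quasi-likelihood test with Benjamini-Hochberg adjustment, the test behind every adjusted p below unless another is named. The w transcript lay higher in all 4 9G8 RNAi libraries than in any control library, but did not pass. The values of the groups did not overlap for 4 of the 8, against 8.73% of all tested genes. The 4 include cd and also w, which may hold marker copies. The 9 genes were chosen with earlier results of these data known, so these shares do not measure an excess. Without 9G8 RNAi 2 only cd passed, and of the 8 leave-one-out fits Pu passed in 1.

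**Figure D1:**
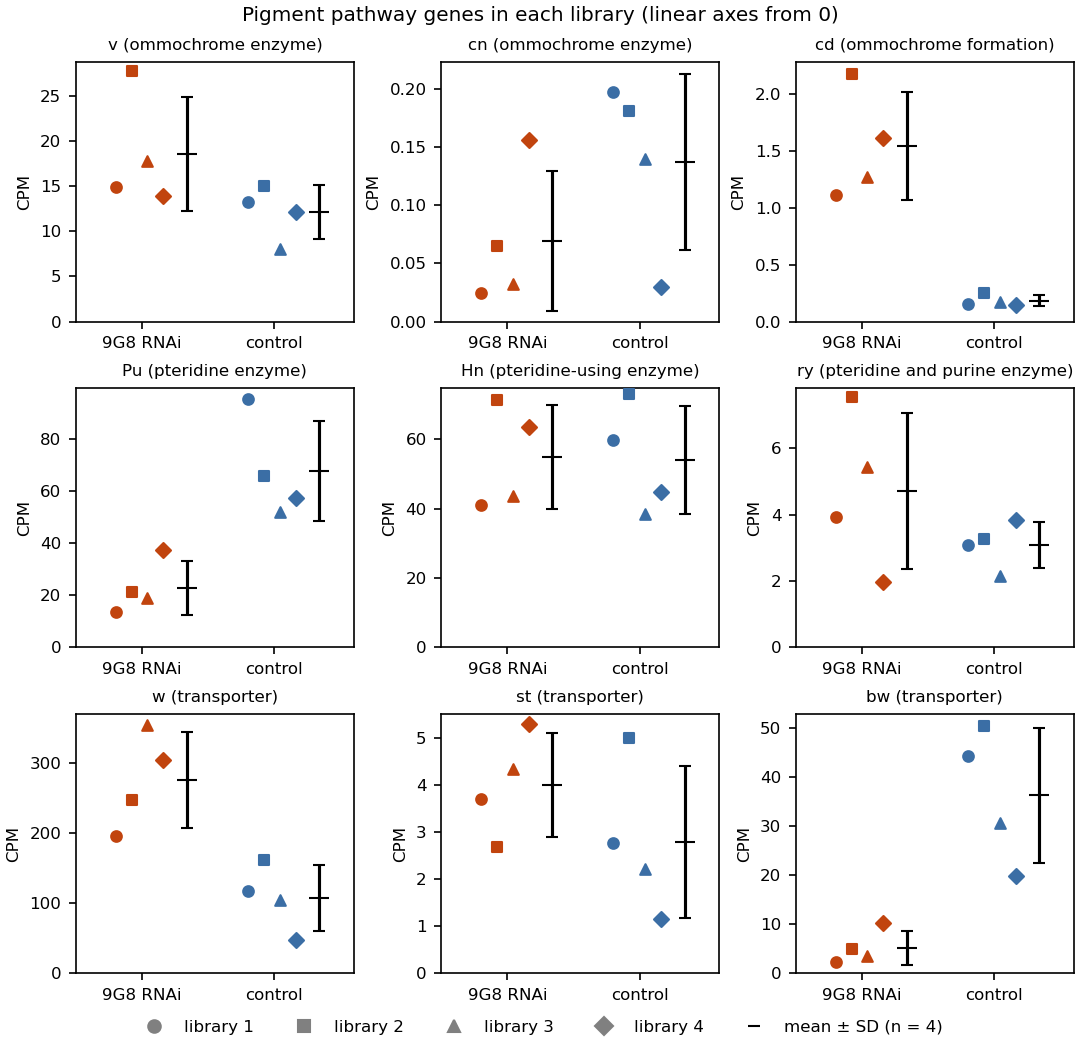
CPM (library-scaled counts, linear axes from 0) of each gene in every library, 9G8 RNAi in orange on the left and control in blue on the right; marker shape gives the library number and the black bar the mean ± SD (n = 4). The 4 9G8 RNAi libraries lie above all controls for cd and w and below all controls for Pu and bw, and the groups overlap for the others.

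The ommochrome branch begins with v (vermilion, FBgn0003965, plus strand of X from 10923972 to 10925631), the tryptophan dioxygenase that opens the kynurenine pathway. Levels are in CPM, counts scaled to library size with TMM factors, or, to compare genes, in TPM, which also divides by exonic length. The v gene had 14.9, 27.8, 17.8 and 13.9 CPM in 9G8 RNAi 1 to 4, and 13.2, 15.04, 8.003 and 12.2 CPM in controls 1 to 4. Apart from 9G8 RNAi 2 and 3, the highest values, the groups lay over each other. The log2 fold change of 0.62 (SE 0.34, adjusted p = 0.539) did not pass.

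A later step belongs to cn (cinnabar, FBgn0000337, minus strand of 2R from 7782797 to 7785067), the kynurenine monooxygenase. Its counts were 1, 3, 1 and 3 in 9G8 RNAi 1 to 4 and 5, 5, 5 and 1 in controls 1 to 4. It was the only one of the 9 left out by the filter, and so few counts support no fold. Of its 1790 exonic bases, 1229 (68.7%) are shared with the noncoding gene CR45108 on the opposite strand, which itself held 17 counts over 9G8 RNAi and 27 over control. Whether reads in shared bases were counted is not given in the sources used here. The unshared exonic bases held at most 8 counts over 9G8 RNAi and 16 over control, so cn reads were scarce there in both groups. How far the overlap lowered the count of cn is not known.

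The largest rise among the 8 was that of cd (cardinal, FBgn0263986, plus strand of 3R from 22694959 to 22697990), a haem peroxidase that acts in the last step from hydroxykynurenine to xanthommatin. Its counts were 46, 101, 39 and 31 in 9G8 RNAi 1 to 4 and 4, 7, 6 and 5 in controls 1 to 4. Every 9G8 RNAi library held more than 4 times the count of the highest control, so the groups stand far apart although the gene is scarce. It averaged 1.54 ± 0.47 CPM in 9G8 RNAi and 0.182 ± 0.048 CPM in control (SD, n = 4 each), which is 3.06 on the log2 scale (SE 0.45, adjusted p = 0.00359). No control library reached the count minimum of the filter and all 4 9G8 RNAi libraries did, so cd entered the test only through the group in which it was high. With no filter it also passed (log2 fold change 3.12, adjusted p = 0.00286), as it did in each of the 14 alternative fits that tested it, at an adjusted p of at most 0.0456. Those fits reuse the same libraries, most with the same filter, and are not separate evidence. With a mean CPM of at least 1, cd was left out and not tested.

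The pteridine branch begins with Pu (Punch, FBgn0003162, plus strand of 2R from 21175315 to 21182608), the GTP cyclohydrolase that sets the entry of GTP into pteridine synthesis. It had 13.5, 21.1, 19.0 and 37.6 CPM in 9G8 RNAi 1 to 4, and 95.5, 66.0, 52.1 and 57.4 CPM in controls 1 to 4. The highest 9G8 RNAi library, number 4, lay below the lowest control, number 3. Pu averaged 22.8 ± 10.3 CPM in 9G8 RNAi and 67.7 ± 19.3 CPM in control (SD, n = 4 each) and fell by 1.57 on the log2 scale (SE 0.38, adjusted p = 0.0439). The direction was kept in every alternative, at log2 fold changes of -1.92 to -1.26, but the call is a narrow one. Without 9G8 RNAi 4 it passed with an adjusted p of 0.0103. It ended without 9G8 RNAi 1, 2 or 3 (adjusted p = 0.198, 0.117 and 0.153) and without control 1, 2, 3 or 4 (0.18, 0.0966, 0.0526 and 0.0590). With RLE size factors its adjusted p was 0.0706, with no filter 0.0597 and with a mean CPM of at least 1 it was 0.0504. By DESeq2 it passed (adjusted p = 0.0145).

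The product of the branch serves Hn (Henna, FBgn0001208, plus strand of 3L from 7760453 to 7763166), the phenylalanine hydroxylase, which turns phenylalanine into tyrosine with tetrahydrobiopterin as cofactor. It had 40.9, 71.1, 43.7 and 63.6 CPM in 9G8 RNAi 1 to 4, and 59.8, 72.9, 38.5 and 44.8 CPM in controls 1 to 4. The ranges covered each other almost fully, and the log2 fold change was 0.02 (SE 0.33, adjusted p = 0.993). Relative to Pu in the same library, per length, Hn stood at 3.08, 3.42, 2.34 and 1.72 in 9G8 RNAi 1 to 4 and at 0.638, 1.12, 0.752 and 0.793 in controls 1 to 4, ratios chosen after the values were seen and given without a test. The enzyme that uses the cofactor was thus more abundant as transcript than the enzyme that starts its synthesis in every 9G8 RNAi library, and in 1 control library, number 2.

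Purines and pterins meet at ry (rosy, FBgn0003308, plus strand of 3R from 13032528 to 13038020), the xanthine dehydrogenase that makes uric acid and oxidises pterins. It had 3.92, 7.53, 5.42 and 1.98 CPM in 9G8 RNAi 1 to 4, and 3.08, 3.26, 2.16 and 3.85 CPM in controls 1 to 4. The 9G8 RNAi libraries held both the highest and the lowest value, and the difference did not pass (log2 fold change 0.61, SE 0.44, adjusted p = 0.734).

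Among the transporters, w (white, FBgn0003996, minus strand of X from 2790599 to 2796466) had the highest mean level of the 9 genes in both groups. It had 196.3, 248.0, 354.6 and 304.1 CPM in 9G8 RNAi 1 to 4, and 117.1, 161.6, 104.3 and 47.1 CPM in controls 1 to 4. The groups did not overlap, with control 2 closest to the 9G8 RNAi range. It averaged 275.7 ± 68.6 CPM in 9G8 RNAi and 107.5 ± 47.2 CPM in control (SD, n = 4 each), which is 1.36 on the log2 scale (SE 0.40, adjusted p = 0.106). No setting brought it past the threshold: its adjusted p ran from 0.0583 by DESeq2 upward to 0.307, and over the leave-one-out fits the log2 fold change was 1.10 to 1.62. The hairpin carried by the 9G8 RNAi group may add a marker copy of w, and this cannot be told apart from a change of the gene. The span of w overlaps kirre on the opposite strand but shares no exonic base with it.

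The partner of White for the ommochrome branch is encoded by st (scarlet, FBgn0003515, plus strand of 3L from 16497651 to 16500460). It was scarce, at 3.70, 2.68, 4.34 and 5.30 CPM in 9G8 RNAi 1 to 4, and 2.77, 5.001, 2.21 and 1.16 CPM in controls 1 to 4. The values were mixed between groups, and the log2 fold change of 0.52 (SE 0.47, adjusted p = 0.827) did not pass.

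The partner for the pteridine branch, bw (brown, FBgn0000241, minus strand of 2R from 23527805 to 23538499), showed the largest fall among the 8. It had 2.27, 4.92, 3.53 and 10.2 CPM in 9G8 RNAi 1 to 4, and 44.3, 50.4, 30.5 and 19.8 CPM in controls 1 to 4. All 4 9G8 RNAi libraries lay below all controls, with 9G8 RNAi 4 and control 4 nearest each other. It averaged 5.23 ± 3.48 CPM in 9G8 RNAi and 36.3 ± 13.8 CPM in control (SD, n = 4 each) and fell by 2.80 on the log2 scale (SE 0.50, adjusted p = 0.00905). The call ended without 9G8 RNAi 2 (log2 fold change -2.78, adjusted p = 0.0596), and without that library and control 3 together (-2.83, adjusted p = 0.105). It was kept in the other 7 fits that left a library out, where the log2 fold change ran from -3.34 to -2.41. The gene shares 456 of its 2738 exonic bases with mi on the opposite strand, which held 517 counts over 9G8 RNAi and 357 over control. The counts of bw itself were 626 over 9G8 RNAi and 4267 over control.

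**Figure D2:**
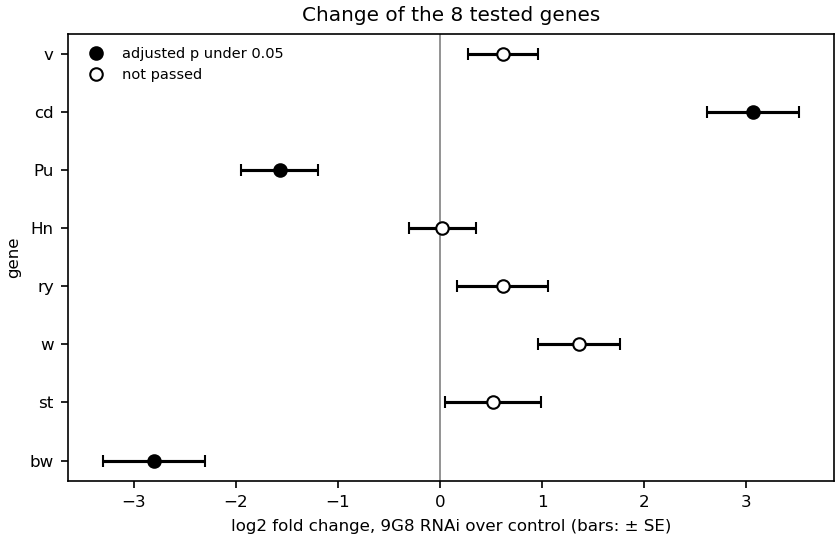
Log2 fold change of each tested gene, 9G8 RNAi over control, with its standard error; filled points passed an adjusted p of 0.05. Only cd (3.06) passed to the right of 0, and bw (-2.80) and Pu (-1.57) passed to the left. The low-count filter admitted cd only through the 9G8 RNAi libraries.

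The transporter transcripts stood in other proportions in 9G8 RNAi than in control. Per length, w exceeded bw by 100.5, 58.7, 117.1 and 34.8 times in 9G8 RNAi 1 to 4, and by 3.08, 3.73, 3.98 and 2.77 times in controls 1 to 4. The ratio of bw to st was 0.481, 1.44, 0.636 and 1.51 in 9G8 RNAi 1 to 4, against 12.6, 7.90, 10.8 and 13.3 in controls 1 to 4. The bw transcript was thus well above st in every control library and near it in 9G8 RNAi, below it in libraries 1 and 3 and above it in libraries 2 and 4. The ratio of w to st was 48.4, 84.6, 74.5 and 52.4 in 9G8 RNAi 1 to 4 and 38.6, 29.5, 43.0 and 36.99 in controls 1 to 4. These ratios do not depend on the scaling between libraries. They were chosen after the values were seen and are given without a test. The w counts in them may include marker copies, and w itself did not pass (adjusted p = 0.106 by edgeR).

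**Figure D3:**
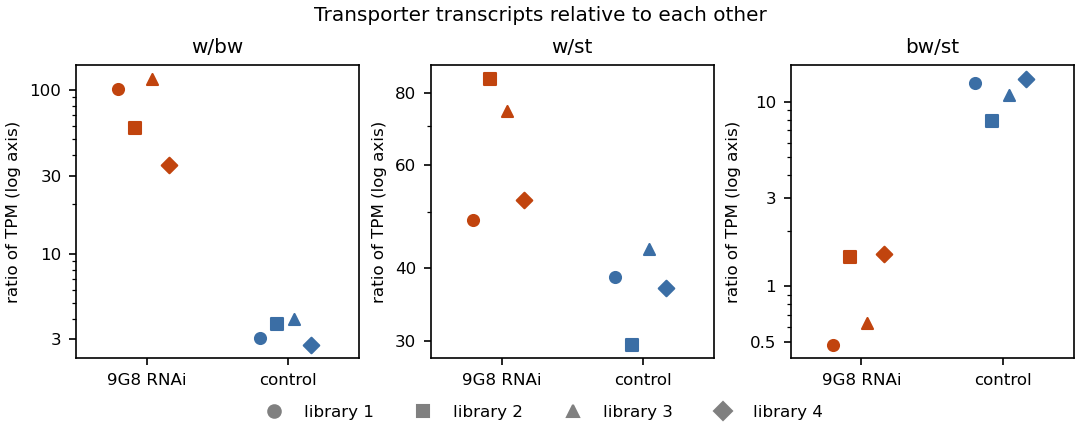
Ratio of TPM between transporter transcripts within each library (log axes), 9G8 RNAi left and control right, marker shape giving the library number. The ratio of w to bw is 34.8 to 117.1 in 9G8 RNAi and 2.77 to 3.98 in control, and the ratio of bw to st is 0.481 to 1.51 in 9G8 RNAi and 7.90 to 13.3 in control. The w counts may include marker copies.

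In order of mean level per length, in TPM, 9G8 RNAi libraries ran w (122.5 ± 42.8), Hn (29.4 ± 19.3), v (17.0 ± 13.3), Pu (10.9 ± 4.84), bw (1.94 ± 1.13), st (1.87 ± 0.21), ry (1.33 ± 1.16), cd (0.686 ± 0.503) and cn (0.039 ± 0.028). Control libraries ran w (39.2 ± 12.7), Pu (27.8 ± 5.29), Hn (22.4 ± 3.59), bw (11.4 ± 2.59), v (8.27 ± 1.83), st (1.10 ± 0.49), ry (0.649 ± 0.227), cn (0.065 ± 0.031) and cd (0.062 ± 0.011). In 9G8 RNAi, w stood clear of Hn, Pu of bw, and cd of cn, and the ranges of all other neighbours overlapped across libraries. Within each 9G8 RNAi library, though, Hn lay above v. In control, the clear steps were from Hn to bw, from v to st and from ry to cn, and w and Pu overlapped. In TPM, 9G8 RNAi 2 was the highest 9G8 RNAi library for every gene but cn. For cd it had 1.44 TPM, against 0.400 to 0.457 TPM in the other 9G8 RNAi libraries, so it weighs heavily on that mean. These high TPM go with its TMM factor of 1.54, the highest of the 8, which TPM does not use.

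Spread within a group was not alike for all genes. In CPM, 9G8 RNAi 2 was the highest 9G8 RNAi library for v, cd, Hn and ry, and 9G8 RNAi 4 for cn, Pu, st and bw. In control, number 4 was the lowest library for w, st and bw, and also for cn and cd, but the highest for ry. The widest spread among the 8 was in bw within 9G8 RNAi, where the highest library had 4.48 times the lowest, and in st within control, at 4.30 times.

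Other genes of these pathways, in 7 lists, did not pass. The lists added 62 tested genes that are not among the 9, and 0 passed by edgeR. At an unadjusted p under 0.05 there were 3 (CG31689, Mocs1 and ade3), or 4.84% of the 62, against 12.9% of all tested genes. By DESeq2, which called 4.76% of all genes, 1 of the 62 passed. It was Mocs1, named after its values were seen, an enzyme of molybdenum cofactor synthesis on which xanthine dehydrogenase depends (log2 fold change 1.44, SE 0.46, adjusted p = 0.145 by edgeR and 0.0435 by DESeq2). Their median log2 fold change was -0.07, against 0.01 for all tested genes. Around v and cn, genes named here for their place in the pathway and after their values were seen, the formamidase KFase was at 18.3 ± 10.9 CPM in 9G8 RNAi and 33.8 ± 10.9 CPM in control (log2 fold change -0.89, SE 0.42, adjusted p = 0.421). The kynurenine aminotransferase CG6950 (Kyat), which diverts kynurenine to kynurenic acid, was at 33.1 ± 10.7 CPM in 9G8 RNAi and 20.3 ± 6.77 CPM in control (0.70, SE 0.34, adjusted p = 0.438). The ommochrome and kynurenine list had 6 genes tested, 1 higher, which was cd, and a median log2 fold change of 0.66.

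Downstream of Pu, the tetrahydrobiopterin enzymes did not follow it past the threshold. The pteridine list had 11 genes tested, 0 higher and 2 lower, which were bw and Pu themselves, with a median log2 fold change of -0.13. The pyruvoyl-tetrahydropterin synthase pr was at 9.26 ± 1.48 CPM in 9G8 RNAi and 6.35 ± 1.19 CPM in control (log2 fold change 0.54, SE 0.32, adjusted p = 0.590). Sepiapterin reductase, Sptr, was at 13.9 ± 1.44 CPM in 9G8 RNAi and 16.3 ± 3.37 CPM in control (-0.23, SE 0.30, adjusted p = 0.903). Dihydropteridine reductase, Dhpr, which recycles the cofactor, was at 62.8 ± 20.2 CPM in 9G8 RNAi and 100.6 ± 22.6 CPM in control (-0.68, SE 0.34, adjusted p = 0.457). These 3 were also named for their role and after their values were seen.

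No list gene passed in the remaining sets apart from bw. Purine synthesis and breakdown had 11 genes tested with a median log2 fold change of 0.16, among them ade5 (0.24) and AdSS (-0.11). The molybdenum cofactor list had 6 tested with a median of 0.57, among them AOX1 (0.50) and cin (0.53). Phenylalanine and tyrosine use had 13 tested with a median of -0.33, among them GstZ1 (-0.06) and Hn. Pigment granule trafficking, the sorting machinery behind another set of eye colour mutants, had 16 tested with a median of -0.14, among them Blos1 (-0.32) and orange, symbol or (-0.36). Of 14 ABCG transporters tested, bw alone passed, and the median was -0.05. In mean TPM, w was the first of these 14 in 9G8 RNAi, where it made up 35.0 to 55.0% of their sum, and in control it made up 15.7 to 32.9%, with a mean below that of CG3164 (44.3 ± 13.0 TPM). Across libraries the TPM ranges of w and CG3164 overlapped in both groups. As a share of the same sum, CG3164 made up 19.7 to 29.7% in 9G8 RNAi and 21.6 to 40.6% in control. Within every 9G8 RNAi library w thus lay above CG3164, and w may include marker copies.

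**Figure D4:**
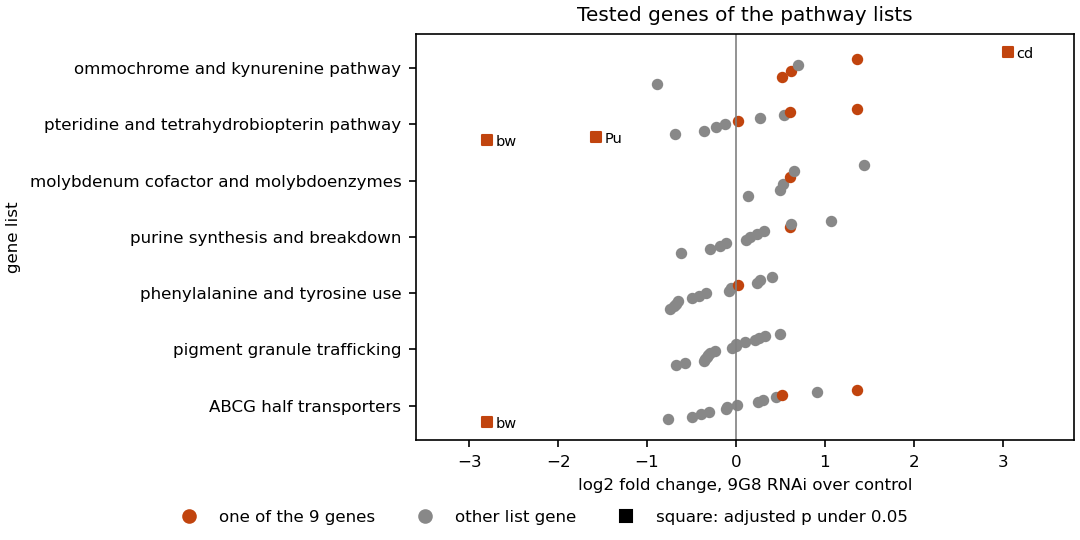
Log2 fold change, 9G8 RNAi over control, of each tested gene in the 7 pathway lists; orange points are among the 9 genes, grey points are other list genes and squares passed an adjusted p of 0.05. Every square is cd, Pu or bw.

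Genes with the most similar profile were found by the root mean square difference of centred log2 CPM over the 8 libraries. A gene chosen for such a profile is bound to move the same way, so its direction is no further evidence. For w they were Odc2 (0.20), dob (0.23) and CG6415 (0.23), against a median of 1.09 over all tested genes. For Pu they were Ssk (0.14), CR45018 (0.14) and CR46112 (0.18), against a median of 1.08. For bw they were dmrt93B (0.28), CG7367 (0.29) and Zw (0.35), against 1.71. In 9G8 RNAi, dmrt93B and CG7367 were scarce, at 0.075 and 0.182 CPM, against 0.78 and 1.30 CPM in control. Zw, glucose-6-phosphate dehydrogenase, was at 264.2 ± 189.3 CPM in 9G8 RNAi and 1384 ± 625.6 CPM in control. For cd they were CG31633 (0.35), CG15661 (Ugt49C1, 0.36) and CG32195 (0.40), against 1.49.

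Tissue markers put these levels in context. Of 13 photoreceptor markers, 12 were too scarce to test, and the rhodopsin gene ninaE was at 0.415 ± 0.456 CPM in 9G8 RNAi and 0.153 ± 0.135 CPM in control, near 0. The 13 summed to 6.86 to 12.1 CPM in 9G8 RNAi and 4.78 to 11.3 CPM in control, most of it from norpA, a phospholipase C gene, at 7.38 ± 1.91 CPM in 9G8 RNAi and 6.60 ± 2.69 CPM in control. Markers of the Malpighian tubule, another site of v, cn and w expression in flies, summed to 73.1 to 139.2 CPM in 9G8 RNAi and 78.5 to 129.3 CPM in control, and the smallest adjusted p among the 9 tested was 0.428. Fat body markers summed to 12203 to 20834 CPM in 9G8 RNAi and 6999 to 11053 CPM in control, with Yp2 higher and Lsp2 lower. They did not move as a set: of 9 tested, 5 had a positive and 4 a negative log2 fold change. Yp1, Yp2 and Yp3 made up most of the sum in every library. Lsd-1 lay the other way, at 1177 CPM in 9G8 RNAi and 1813 CPM in control, as did Npc2b, at 134.9 CPM in 9G8 RNAi and 287.6 CPM in control. Hemocyte markers were lower in 9G8 RNAi in 8 of 8, He and Pxn past the threshold, with sums of 75.7 to 138.4 CPM in 9G8 RNAi and 116.2 to 310.5 CPM in control. Gut markers summed to 15578 to 40998 CPM in 9G8 RNAi and 238 to 20803 CPM in control. The low end was control 3 alone, and the next lowest, control 4, had 7545 CPM. Of 13 gut markers tested, 3 passed as higher, against 0.995% of all tested genes. By sign, 10 had a positive and 3 a negative log2 fold change. Eggshell markers ranged from 40.4 to 8323 CPM in 9G8 RNAi and from 14.8 to 8555 CPM in control. Germline markers summed to 83.1 to 465.1 CPM in 9G8 RNAi and 16.4 to 435.8 CPM in control. Muscle markers summed to 817.2 to 1715 CPM in 9G8 RNAi and 848.5 to 1855 CPM in control, and oenocyte markers to 5036 to 10001 CPM in 9G8 RNAi and 3350 to 6323 CPM in control. The part of any of these in the results for bw, Pu, cd and w was not tested, and in such bulk RNA fewer cells of a type and less RNA per cell cannot be told apart.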

How the data were processed

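Each deposited file holds raw read counts per gene for 1 library, in the layout of featureCounts per the file headers. Trimmomatic 0.36, STAR 2.5.2b, featureCounts of Subread 1.5.2 and the build BDGP6 are named in the submitters' processing notes. Neither the strand setting nor the handling of multiply matching reads is given in the sources used here, so reads in bases shared by overlapping genes are uncertain.

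The count test used edgeR 4.0.16 under R 4.3.3: filterByExpr by genotype (minimum count 10), which left 9846 genes, TMM factors and the two-sided quasi-likelihood F test of 9G8 RNAi over control, without covariates. P-values were adjusted over all tested genes (Benjamini-Hochberg), with calls at an adjusted p under 0.05. Standard errors derive from the F statistic. CPM use the TMM factors, and TPM the exonic lengths in the files. Coordinates are those of the files, and FlyBase identifiers come from a later BDGP6 annotation. The test was also run on counts simulated from its own fitted means and dispersions, as a check of the code. That run cannot show how the test behaves where libraries differ as these do in tissue markers.

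Members and lists were chosen with earlier results of these data known. Of 83 list symbols, 5 were not matched. Named genes were the 9 members, from each list those that passed or else the 2 highest in TPM, and the 3 most similar profiles to w and to each changed member. Genes outside this rule (other pathway enzymes, markers and neighbours) were named for role or position after their values were seen. No label says that libraries came from separate flies or cultures, so p-values measure the spread between libraries. Alternatives were RLE factors, DESeq2 1.42.0, other filters, a replicate block and left-out libraries. No sequence is shown.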

Additional observations from a re-analysis of the deposited data

How the results depend on the processing

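The member genes changed numbered 3, with 1 to 3 over the fits that left a library out, 1 with a mean CPM of at least 1 and 1 without control 3 and 9G8 RNAi 2 together. With a mean CPM of at least 1, 0 were higher, since cd lay under that minimum and was not tested. Lower members numbered 2, with 1 under RLE factors, no filter, a mean CPM of at least 1 and without control 4 and 9G8 RNAi 1 together, 0 without control 3 and 9G8 RNAi 2 together, and 0 to 2 with a library left out. Over all genes, 316 changed, 98 higher and 218 lower, against 557, 200 and 357 by DESeq2 and 96, 28 and 68 without control 3 and 9G8 RNAi 2 together. With a library left out the totals ran from 162 to 504, the higher from 51 to 124 and the lower from 105 to 380. With no filter 149 were higher, and without control 4 and 9G8 RNAi 1 together 126 were lower. The cause of these shifts was not tested. Hn, near 0, had a log2 fold change of -0.14 to 0.26 with a library left out, below 0 without 9G8 RNAi 2 (-0.14), 9G8 RNAi 4 (-0.06), control 3 (-0.11) or control 4 (-0.04), and of -0.25 without control 3 and 9G8 RNAi 2 together. No other tested member changed direction in any setting run.

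Libraries with the same number did not deviate together from their group means (r = -0.57, -0.24, -0.02 and -0.59 for numbers 1 to 4). Under the replicate block 141 genes changed, 37 higher and 104 lower, and 2 members, 1 of them lower. In that fit cd (adjusted p = 0.0295) and bw (0.0337) passed and Pu did not (0.155). Counts were few for cn, with 8 over 9G8 RNAi and 16 over control, and for cd in control, with 22.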

Other observations

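The nearest tested genes on either side of each of the 9 were read from the same fit, 4 a gene, as a description chosen after the results were known. Of all these neighbours only Cyp6d4 and CG33158 passed, where 3.21% of all tested genes passed. Whether any neighbour changed together with its member was not tested. Next to cd, 329 bases further along 3R, lies the cytochrome P450 gene Cyp6d4, which also rose: it was at 14.5 CPM in 9G8 RNAi and 3.51 CPM in control (log2 fold change 2.05, SE 0.49, edgeR adjusted p = 0.0449). Below cd, Nup133, a nuclear pore component, did not pass (0.33, SE 0.64, edgeR adjusted p = 0.942).

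Close to bw, 132 bases away, ppk3 was at 1.73 CPM in 9G8 RNAi and 6.36 CPM in control (log2 fold change -1.90, SE 0.64, edgeR adjusted p = 0.165), while RabX1 on its other side was at 8.69 CPM in 9G8 RNAi and 9.46 CPM in control. Around Pu, neither Xpd (log2 fold change 0.24) nor tud (0.14) passed. The gene CG33158 beside st rose, at 15.6 CPM in 9G8 RNAi and 2.83 CPM in control (2.46, SE 0.51, edgeR adjusted p = 0.0210), although st itself did not pass. CG32795, 32 bases from w, was at 44.7 CPM in 9G8 RNAi and 44.3 CPM in control, beside the higher w counts of the same libraries.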
